A study of Mus musculus with 23 samples.

Results

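Genes of oligodendrocytes, the cells that wrap axons of the brain in myelin, were followed in the whole brains of adult male mice whose recipient mothers had eaten 1 of 3 diets before and during pregnancy. The 9 genes were Mbp, Mog, Mag, Mobp, Cnp, Mal, Ugt8a, Olig1, and Sox10. Every probe of the array that carries 1 of these names was used, which gave 13 of the 39429 probes. Mbp and Mobp had 3 probes each and every other gene had 1. All 13 were well above background on all 12 arrays. Embryos of C57BL/6J (B6) mice fed a normal diet were made by in vitro fertilization and carried by outbred ICR females on the control diet (CD), the protein-restricted diet (PR), or the protein-restricted diet with added folic acid (FA). By weight, casein made up 20% of the CD and 5% of the PR and FA diets, and folic acid 0.02% of the CD and PR diets and 0.1% of the FA diet. The pups were delivered by cesarean section, raised by ICR foster mothers, given the CD after weaning, and taken after behavioral tests at 19 weeks of age. The text of the study gives the diet of the foster mothers as the CD in one place and as the CD, PR, or FA diet in another. Each group had 4 mice with 1 array each, and the labels do not say which mice were littermates.

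Myelin is a spiral of membrane that oligodendrocytes lay around axons and that lets nerve impulses travel fast. The membrane is rich in galactolipids and is held together by a small set of proteins, and both are made in large amounts by mature oligodendrocytes under the control of lineage transcription factors. Among the 9 genes, Ugt8a encodes the enzyme that makes galactosylceramide, the main galactolipid of myelin. Mbp and Mobp encode basic proteins of the compact layers, Cnp an enzyme of the non-compact layers, Mog a protein of the outer surface, Mag an adhesion protein next to the axon, and Mal a proteolipid involved in membrane sorting. Olig1 and Sox10 encode transcription factors of the lineage.

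The probes that the results turn on are shown so that each value can be tied to a place in the gene. Coordinates are mm9, as in the scanner files. For the 4 genes that were higher in both the PR and the FA group, bases 16 to 45 of the 60-base probe were as follows.
Ugt8a, A_52_P439263 (NM_011674, chr3:125568995-125569054, minus strand): aactttcataaattcaggacctccatgttg
Olig1, A_52_P603038 (NM_016968, chr16:91271799-91271858, plus strand): taaaattcggtcattaacgttctcattaaa
Mog, A_66_P123582 (NM_010814, chr17:37148277-37148336, minus strand): ttgatttccctccctcaactgtctttcctc
Cnp, A_51_P232901 (NM_009923, chr11:100442617-100442676, plus strand): gttcctatctccttcacactgtacctaggg
The 3 probes for Mobp lie in order along the plus strand of chromosome 9 and only the first was called in any comparison, so a stretch of each is shown. For the first and second probes it is bases 16 to 45, and for the last probe bases 30 to 59.
Mobp, A_51_P291224 (NM_001039365, chr9:120077006-120077065): caactccaagcgtgagatcgtggaccgcaa
Mobp, A_55_P1958793 (NM_001039365, chr9:120078400-120078459): cgtatctaaggttgacttcaaacttataaa
Mobp, A_55_P1958798 (NM_008614, chr9:120085150-120085209): taacaagaactcAATAAAtacttgctgact
Capitals mark AATAAA, the common signal for cleavage and polyadenylation near the end of a transcript. These letters were in 12.6% of all 39429 probes on the strand given, and also in the probes for Mag and Sox10. In them, bases 31 to 60 were as follows.
Mag, A_55_P2062757 (NM_010758, chr7:31684202-31684261, minus strand): aaagggacatgaAATAAAtgtcctaatgac
Sox10, A_55_P2094729 (NM_011437, chr15:78985518-78985577, minus strand): tccagcgataccttAATAAAgtacgtagct
Each of these 9 stretches was found in 1 probe of the array. The probe for Mal, A_55_P2113160 (NM_010762), lies at chr2:127458976-127459035 on the minus strand. Of the 3 probes for Mbp, A_55_P1992160 lies farthest upstream, A_52_P604195 follows, and A_52_P329451 lies last. Its 60 bases cover 2305 bases of genome, so this probe crosses an intron. The sources used here do not place the probes in exons or untranslated parts.

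Sox10 acts on many myelin genes through SOX sites, whose core is often written ACAAAG. The 250 bases before the transcription start were read from a RefSeq table of build GRCm38.p6. It gave windows for 6 of the 9 genes, and Mbp was left out of the search. Capitals mark ACAAAG or its complement CTTTGT on the strand shown. These letters were in 16.5% of the 32851 windows of the same length in the table. Windows are shown for the 3 of the 4 genes higher in both groups that the table held, and for Mobp.
Ugt8a, chr3:125938653-125938902, minus strand: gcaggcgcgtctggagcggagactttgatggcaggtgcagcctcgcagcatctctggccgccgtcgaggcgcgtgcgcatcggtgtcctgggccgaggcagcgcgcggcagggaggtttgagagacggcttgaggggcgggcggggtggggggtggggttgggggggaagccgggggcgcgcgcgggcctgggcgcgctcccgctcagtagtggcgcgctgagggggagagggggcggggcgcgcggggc
Mog, chr17:37023399-37023648, minus strand: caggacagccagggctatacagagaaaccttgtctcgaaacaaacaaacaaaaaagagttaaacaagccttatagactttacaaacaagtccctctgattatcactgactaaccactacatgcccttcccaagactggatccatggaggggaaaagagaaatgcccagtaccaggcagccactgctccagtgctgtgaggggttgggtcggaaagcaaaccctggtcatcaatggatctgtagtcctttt
Cnp, chr11:100574689-100574938, plus strand: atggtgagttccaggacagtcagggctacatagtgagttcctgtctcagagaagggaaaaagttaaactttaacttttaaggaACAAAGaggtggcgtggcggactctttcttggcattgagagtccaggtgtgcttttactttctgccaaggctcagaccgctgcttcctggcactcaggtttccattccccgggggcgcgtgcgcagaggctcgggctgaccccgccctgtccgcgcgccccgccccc
Mobp, chr9:120149492-120149741, plus strand: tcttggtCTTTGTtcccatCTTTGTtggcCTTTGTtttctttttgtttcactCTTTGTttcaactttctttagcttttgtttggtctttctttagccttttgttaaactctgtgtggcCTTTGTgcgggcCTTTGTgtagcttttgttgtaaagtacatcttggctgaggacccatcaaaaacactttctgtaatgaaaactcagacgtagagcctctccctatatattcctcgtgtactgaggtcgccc
The Mobp window held the letters 6 times, the Cnp window once, and the windows of Ugt8a and Mog not at all. Mag had several windows, not shown here, with the letters once or not at all, and the window of Mal, also not shown, did not hold them. The G and C content was 76.8% for Ugt8a, 57.2% for Cnp, 46.8% for Mog, and 40.8% for Mobp. A match to these letters is a description of the sequence and not a measured binding site.

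Values are normalized intensities on the log2 scale, on which 1 unit is a 2-fold difference. Intensities of different probes were compared only to pick the brightest probe of a gene or name dim ones, and within arrays for Mbp and Mobp. The 3 groups were fitted together with limma, with Benjamini-Hochberg adjustment of the p-values of each comparison across the 39429 probes. A probe was called at an adjusted p under 0.05. All 4 arrays of a diet lay on the same slide and were scanned together, and the effect of the slide cannot be told apart from that of the diet. The slides differed in background. The negative control signal was 28.1 to 34.8 on the CD arrays, 42.7 to 51.2 on the PR arrays, and 39.3 to 47.6 on the FA arrays, and between 27068 and 28458 spots were well above background on the CD arrays against 30408 to 33478 on the others. Growth hormone (Gh) and prolactin (Prl), hormones of the pituitary, were well above background on all 4 CD arrays, on 0 PR arrays, and on 1 FA array, FA replicate 4. The mean log2 level of 6 pituitary genes was 7.28 to 7.59 on the CD arrays, 5.23 to 5.57 on the PR arrays, and 4.40 to 6.87 on the FA arrays. The part of these differences in the results was not tested. In RNA of a whole brain, more or fewer oligodendrocytes and more or less RNA per oligodendrocyte cannot be told apart.

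**Figure D1:**
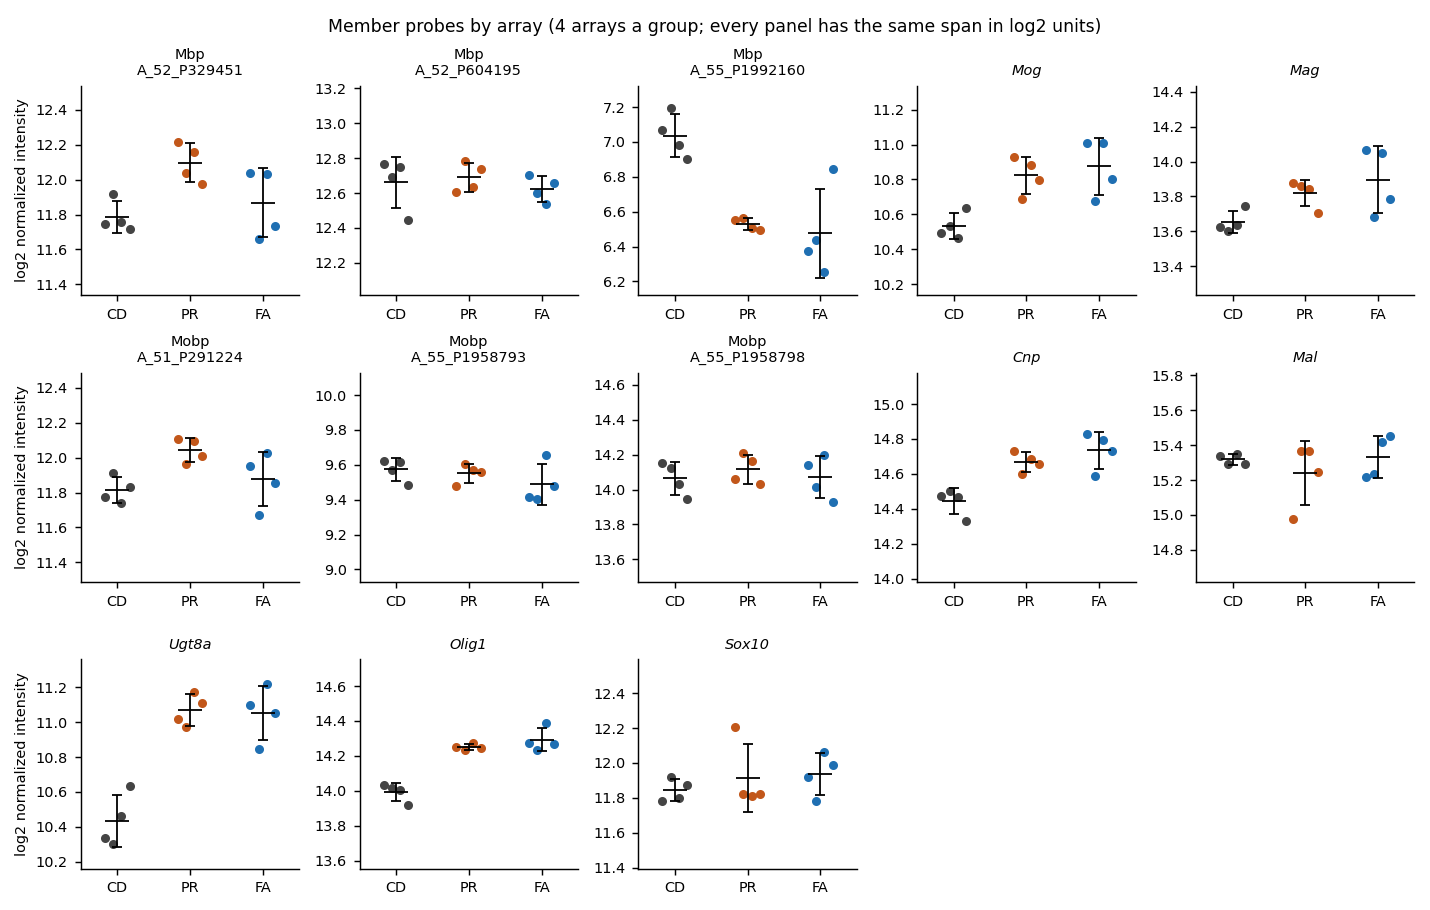
Normalized intensity (log2) of the 13 member probes on the 12 arrays, 4 per diet, with the group mean and SD as bars. The points of the PR and FA groups for Ugt8a (10.84 to 11.22) all lie above those of the CD group (10.30 to 10.64), and the points for Mbp A_55_P1992160 lie below them.

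Ugt8a, the galactosylceramide enzyme, showed the largest difference among the members. Its log2 value was 10.34, 10.30, 10.46, and 10.64 in CD replicates 1 to 4. In the PR group it was 11.02, 10.97, 11.17, and 11.11, and in the FA group 11.10, 10.84, 11.22, and 11.05. Every PR and FA array was above every CD array. The mean was 10.43 ± 0.15 (SD, n = 4) for CD, 11.07 ± 0.09 for PR, and 11.05 ± 0.16 for FA. The PR group was 1.55-fold above the CD group, a log2 difference of 0.63 (SE 0.09, adjusted p = 0.000753). The FA group was 1.54-fold above it, with a log2 difference of 0.62 (SE 0.09, adjusted p = 0.000724). Both comparisons use the same CD arrays. Between the FA and PR groups the log2 difference was -0.01, with a 95% interval of -0.22 to 0.19. Ugt8a was called in both comparisons with any 1 of the 12 arrays left out. After normexp background correction, which models the background of each array, only the FA call was kept. The log2 difference was then 0.58 for PR (adjusted p = 0.0777) and 0.60 for FA (adjusted p = 0.0379), each relative to CD.

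Olig1, the other gene that stood well clear of the CD group, is a transcription factor of the lineage. Its log2 value was 14.03, 14.02, 14.00, and 13.92 in CD replicates 1 to 4. In the PR group it was 14.25, 14.23, 14.28, and 14.25, and in the FA group 14.28, 14.24, 14.39, and 14.27. The differences were smaller than for Ugt8a, but the arrays of a group lay close together and the CD arrays did not overlap with the others. Relative to the CD group, Olig1 was 1.20-fold higher in the PR group (log2 difference 0.26, SE 0.04, adjusted p = 0.00154) and 1.23-fold higher in the FA group (0.30, SE 0.04, adjusted p = 0.00054). The FA and PR groups differed by 0.04 on the log2 scale, with a 95% interval of -0.05 to 0.14. Leaving out any 1 array kept both calls. The size of the PR difference depended on the normalization. It was 0.16 with 75th percentile scaling (adjusted p = 0.0285). After normexp background correction, which was followed by the same scaling, it was 0.17 (adjusted p = 0.972).

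Sox10, the other transcription factor among the members, was not called. Its log2 value was 11.78, 11.92, 11.80, and 11.87 in the CD group and 11.92, 11.78, 12.06, and 11.99 in the FA group. In the PR group it was 12.21 on the array of replicate 1 and 11.82, 11.81, and 11.82 on the other 3. That 1 array set the PR mean. The log2 difference from the CD group was 0.07 for PR (95% interval -0.14 to 0.28, adjusted p = 0.605) and 0.09 for FA (-0.12 to 0.30, adjusted p = 0.479).

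Mog, the protein of the outer surface of myelin, was higher in both groups. On the log2 scale it read 10.49, 10.53, 10.46, and 10.63 in the CD group. It was 10.93, 10.69, 10.88, and 10.79 in the PR group and 11.01, 10.68, 11.01, and 10.80 in the FA group. The lowest arrays of the PR and FA groups were just above the highest CD array. The log2 difference was 0.29 for PR (1.22-fold, SE 0.09, adjusted p = 0.0257) and 0.34 for FA (1.27-fold, SE 0.09, adjusted p = 0.0104). The PR call was lost without CD replicate 1, 2, or 3 or PR replicate 1 or 3, with adjusted p up to 0.0676 and differences of 0.26 to 0.34, and the FA call was kept without any array.

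Cnp, the enzyme of non-compact myelin, was higher in both groups as well. The CD arrays, in order of replicate, read 14.47, 14.50, 14.47, and 14.33, the PR arrays 14.73, 14.60, 14.69, and 14.66, and the FA arrays 14.83, 14.59, 14.80, and 14.73. No CD array reached the lowest of the others. The log2 difference was 0.22 for PR (1.17-fold, SE 0.06, adjusted p = 0.0197) and 0.29 for FA (1.22-fold, SE 0.06, adjusted p = 0.00452). Without PR replicate 1 the PR difference was 0.19 with an adjusted p of 0.052. With each array scaled to its 75th percentile, it was 0.10 with an adjusted p of 0.234, and the FA difference was 0.18 with an adjusted p of 0.0343.

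Mag, the adhesion protein next to the axon, was not called. Its log2 value was 13.62, 13.60, 13.64, and 13.74 in the CD group, 13.87, 13.86, 13.84, and 13.71 in the PR group, and 14.07, 13.68, 14.05, and 13.79 in the FA group. PR replicate 4 and FA replicate 2 lay among the CD arrays. The log2 difference was 0.17 for PR (95% interval -0.03 to 0.36, adjusted p = 0.176) and 0.24 for FA (0.05 to 0.44, adjusted p = 0.0536). Without FA replicate 2 the FA difference was 0.31 with an adjusted p of 0.0131.

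Mal, the sorting proteolipid, did not differ beyond its spread. Its log2 value was 15.29 to 15.35 on the CD arrays, 15.22 to 15.45 on the FA arrays, and 14.98 to 15.37 on the PR arrays. The low value was PR replicate 1, the array with the high Sox10 value. The log2 difference was -0.08 for PR (95% interval -0.28 to 0.12, adjusted p = 0.538) and 0.01 for FA (-0.19 to 0.21, adjusted p = 0.935).

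The 3 probes for Mbp, the main basic protein of compact myelin, were called higher, lower, or not at all. The probe that crosses an intron, A_52_P329451, read 11.75, 11.92, 11.76, and 11.71 in the CD group and 12.22, 12.04, 12.16, and 11.97 in the PR group. It was higher in the PR group by 0.31 on the log2 scale (1.24-fold, SE 0.10, adjusted p = 0.0341), with no overlap. This call was lost without CD replicate 1, 3, or 4 or PR replicate 1 or 3, with adjusted p up to 0.087. In the FA group the probe read 12.04, 11.66, 12.03, and 11.74, which overlapped with the CD group (log2 difference 0.08, 95% interval -0.13 to 0.30, adjusted p = 0.546). The brightest of the 3, A_52_P604195, read 12.45 to 12.76 on the CD arrays, 12.61 to 12.78 on the PR arrays, and 12.54 to 12.70 on the FA arrays. It was not called, with a log2 difference of 0.03 for PR (95% interval -0.14 to 0.20, adjusted p = 0.803) and -0.04 for FA (-0.21 to 0.13, adjusted p = 0.731). The upstream probe, A_55_P1992160, the dimmest member probe with a mean log2 value of 6.68, went the other way. It read 7.07, 7.19, 6.98, and 6.90 in the CD group, 6.55, 6.56, 6.50, and 6.50 in the PR group, and 6.37, 6.44, 6.25, and 6.84 in the FA group, all of them below the lowest CD array. It fell by 0.51 on the log2 scale in the PR group (SE 0.11, adjusted p = 0.00724) and by 0.56 in the FA group (SE 0.11, adjusted p = 0.00353). Both calls were kept without any 1 array. After normexp background correction this probe was called in neither comparison, with a log2 difference of -0.45 for PR (adjusted p = 0.972) and -0.81 for FA (adjusted p = 0.679).

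The change of the Mbp probes relative to each other was also measured within each array, as the difference between the log2 values of 2 probes. Against the upstream probe, A_52_P329451 changed by 0.82 more in the PR group and 0.64 more in the FA group, and A_52_P604195 by 0.54 and 0.52 more. The groups did not overlap in any of these 4 comparisons. Each had an exact two-sided permutation p of 0.0286, the smallest that 4 arrays against 4 can give. After adjustment over the 18 probe pairs and comparisons of Mbp and Mobp it was 0.103. From this smallest p an adjusted p under 0.05 was hardly within reach, so the adjusted test does not decide whether the probes differ. Since its probes were called higher, lower, or not at all, the level of Mbp as a gene was not given a direction. The Mbp locus is known to make both the classic transcripts and longer golli transcripts that start upstream, and which of them the upstream probe reads was not tested.

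Mobp, the small basic protein of compact myelin, was called by 1 of its 3 probes. The first probe along the gene, A_51_P291224, read 11.77, 11.91, 11.74, and 11.83 in the CD group and 12.10, 11.96, 12.10, and 12.01 in the PR group, with no overlap. Its log2 difference was 0.23 (1.17-fold, SE 0.08, adjusted p = 0.0441). The call was lost in 8 of the 12 fits with 1 array left out, those without CD replicate 1, 3, or 4, PR replicate 1, 3, or 4, or FA replicate 1 or 4, with adjusted p up to 0.104. In the FA group it read 11.95, 11.67, 12.03, and 11.85 and overlapped with the CD group (log2 difference 0.06, 95% interval -0.11 to 0.23, adjusted p = 0.564). The middle probe, A_55_P1958793, read 9.48 to 9.62 on the CD arrays, 9.48 to 9.60 on the PR arrays, and 9.40 to 9.65 on the FA arrays. The last probe, A_55_P1958798, read 13.94 to 14.15, 14.03 to 14.21, and 13.93 to 14.20. Neither was called, with log2 differences from the CD group between -0.09 and 0.05. Within arrays, the first probe changed by 0.25 more than the middle one in the PR group (exact two-sided permutation p = 0.0286, adjusted p = 0.103) and by 0.18 more than the last one (p = 0.0857, adjusted p = 0.257, same exact test). As this exact test cannot give a p below 0.0286, an adjusted p under 0.05 was hardly within reach. The adjusted test therefore does not decide whether the Mobp probes differ.

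**Figure D2:**
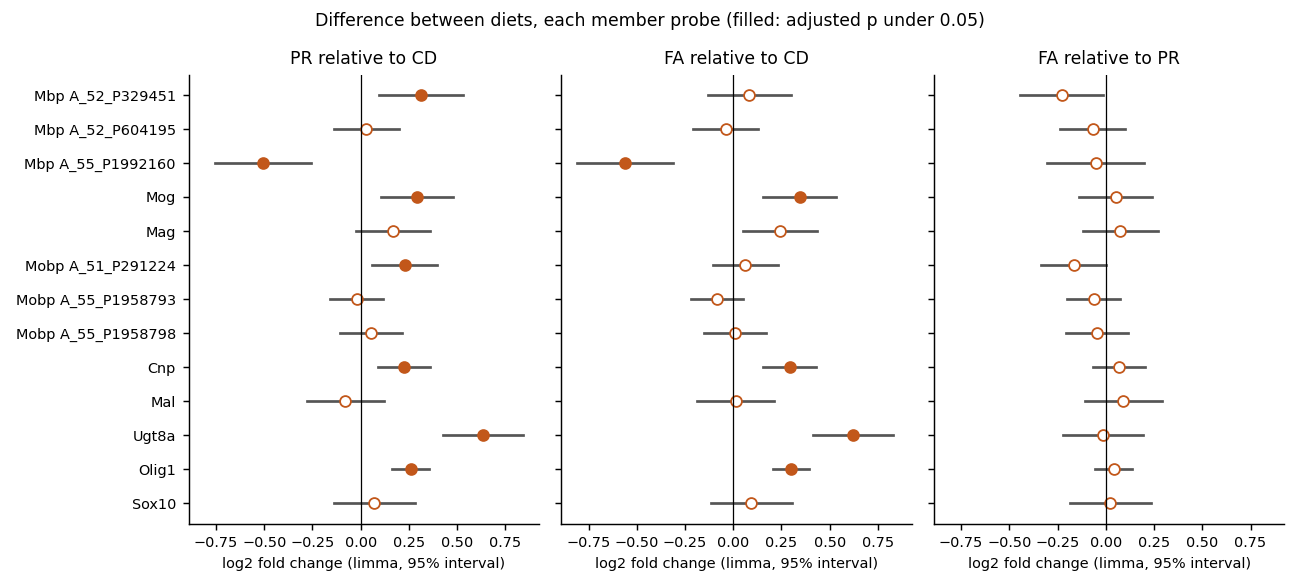
Log2 fold change of each member probe in the 3 comparisons, with the 95% interval of limma as a line and probes at an adjusted p under 0.05 filled. In PR relative to CD, 6 probes were higher and 1 was lower, in FA relative to CD 4 were higher and 1 was lower, and in FA relative to PR the points lie between -0.23 and 0.09 with none filled.

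Over all member probes, 7 of 13 were called in PR relative to CD, 6 higher and 1 lower. In this comparison 30.0% of all probes were called, 13.4% higher and 16.6% lower. The groups did not overlap for the same number of member probes, 7, and for 33.2% of all probes. In FA relative to CD, 5 of 13 were called, 4 higher and 1 lower, against 34.4% of all probes, 16.4% higher and 18.0% lower. The groups did not overlap for 5 member probes and for 36.9% of all probes. The median log2 difference of the 13 probes was 0.17 for PR and 0.08 for FA, beside -0.02 and -0.01 for all probes. In FA relative to CD the share of members called was thus near that of all probes. None of the 13 met the limits of the study, a 2-fold difference at an adjusted p under 0.0001, which 0.0862% of all probes met for PR and 0.195% for FA, each relative to CD. With the Tukey test that the methods name, adjusted over all probes, 4 member probes differed at 0.05 between PR and CD and 5 between FA and CD. Of all probes, 21.2% differed between PR and CD and 25.5% between FA and CD by this test. By it, 0 member probes met the limits of the study. Among all probes, 0 met them by this test for PR and 1 for FA, each relative to CD. The 0 among the members therefore does not set them apart from the other probes.

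The question whether added folic acid changed these genes on the protein-restricted diet is addressed by FA relative to PR. By limma, 0 of 13 member probes were called and 0.614% of all probes were. At an unadjusted p under 0.05, 1 of the 13 differed, Mbp A_52_P329451, which was lower in the FA group by a log2 value of -0.23 (95% interval -0.45 to -0.01, adjusted p = 0.321). The Tukey test called 0 of 13 as well, and 0.0203% of all probes. The FA and PR groups overlapped for all 13 probes, while 11.1% of all probes did not overlap. The 95% intervals of the 13 differences reached from -0.45 to 0.29 on the log2 scale, so that larger differences lay outside them.

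Within the FA group, several members deviated in the same direction on the same arrays, although no pair of members passed the test given next. Mog was 0.14 above its group mean on the log2 scale in FA replicates 1 and 3 and 0.20 below it in FA replicate 2. Mag was 0.17 and 0.15 above in replicates 1 and 3 and 0.22 below in replicate 2. Ugt8a was 0.05 and 0.16 above and 0.21 below on the same arrays, and Cnp 0.09 and 0.06 above and 0.15 below. Mal was 0.11 below its mean in FA replicate 1 and Mbp, by its brightest probe, 0.09 below in FA replicate 3, so not all members followed. Markers of other cells also differed between these arrays. The mean of 4 genes of cerebellar granule cells was 0.26 below its group mean in FA replicate 3 and 0.05 to 0.13 above it in the other 3 FA arrays. That of 6 pituitary genes was 1.07 below in FA replicate 2 and 1.39 above in FA replicate 4. Their part in the deviations of the members was not tested.

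**Figure D3:**
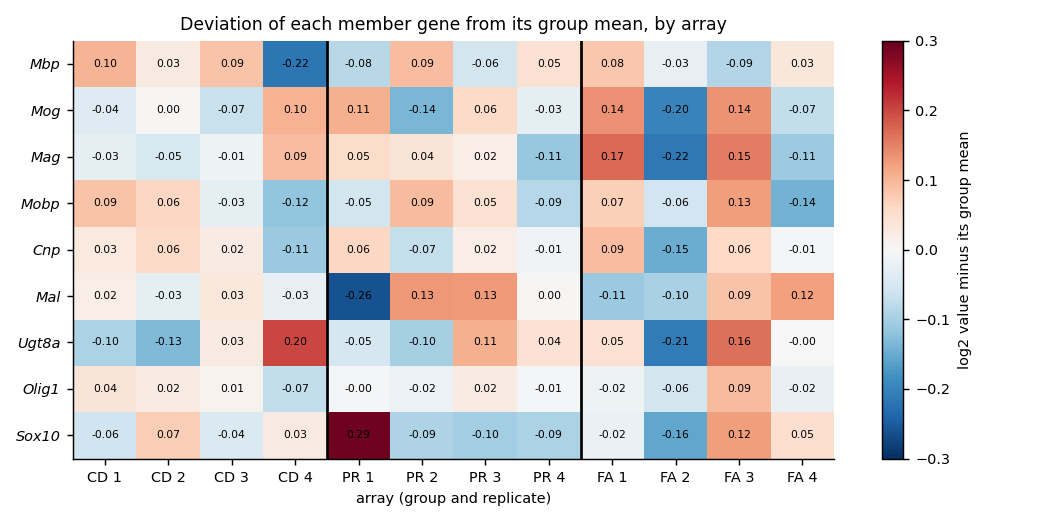
Log2 value of each member gene (brightest probe) minus the mean of its own diet group, for the 12 arrays. FA replicate 2 is below its group mean for all 9 genes, FA replicate 3 is above for 8 of 9, and PR replicate 1 has the highest value for Sox10 (0.29) and the lowest for Mal (-0.26).

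Over the 12 arrays with group means removed, Pearson's r was above 0 for 26 of the 36 pairs of member genes, with a median of 0.258 and a range of -0.529 to 0.815. The highest was for Mag and Mog (r = 0.815, exact permutation p within groups = 0.0304, Spearman's rho = 0.762, p = 0.0713), and r was 0.647 without the 2 arrays farthest from the median for Mog. After adjustment over the 36 pairs, the lowest adjusted p was 0.397 for r and 0.384 for rho, so no pair passed. By a fixed rule, the 5 other probes whose deviations were most like the mean of the 9 members, out of 23740 well above background on all arrays, were those of Ppp2r3a (r = 0.965), Wdr63 (0.959), Ecel1 (0.948), Ubxn10 (0.947), and Ucn (0.941). Since they were chosen for this likeness among so many, no p is given. Without FA replicates 2 and 3, the arrays with the lowest and the highest member mean, r was 0.937, 0.938, 0.785, 0.783, and 0.689. Ucn, which encodes the neuropeptide urocortin of a small group of midbrain neurons, deviated by 0.71, -1.82, 1.12, and 0.00 on the log2 scale in FA replicates 1 to 4. The other 4 deviated by at most 0.45.

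Another 47 genes of the oligodendrocyte lineage, none of them members, were read by their brightest probe. In PR relative to CD, 10 were higher and 4 lower, and in FA relative to CD 15 were higher and 7 lower. Of all 31829 named genes read in the same way, 12.7% were higher and 16.5% lower for PR, and 15.9% were higher and 17.6% lower for FA. The median log2 difference of the 47 was 0.09 for PR and 0.13 for FA, beside -0.02 and -0.00 for all named genes. In FA relative to PR, 0 of the 47 were called by limma, and 0.616% of all named genes were. Leaving out 1 array moved the number called in PR relative to CD to between 7 (without PR replicate 4) and 17. It was 9 without CD replicate 2 or PR replicate 3. In FA relative to CD the number moved to between 14 (without FA replicate 3) and 23. In the same fits, 23.8% to 31.1% of all probes were called in PR relative to CD and 29.1% to 35.1% in FA relative to CD. The genes described next were taken by a fixed rule, while Zfp488, Zfp536, Nkx6-2, Jam3, Gjb1, Omg, Tppp, Ermn, Qdpr, Sirt2, Apod, and Adamts4 are named because they complete a count, after their values were seen.

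**Figure D4:**
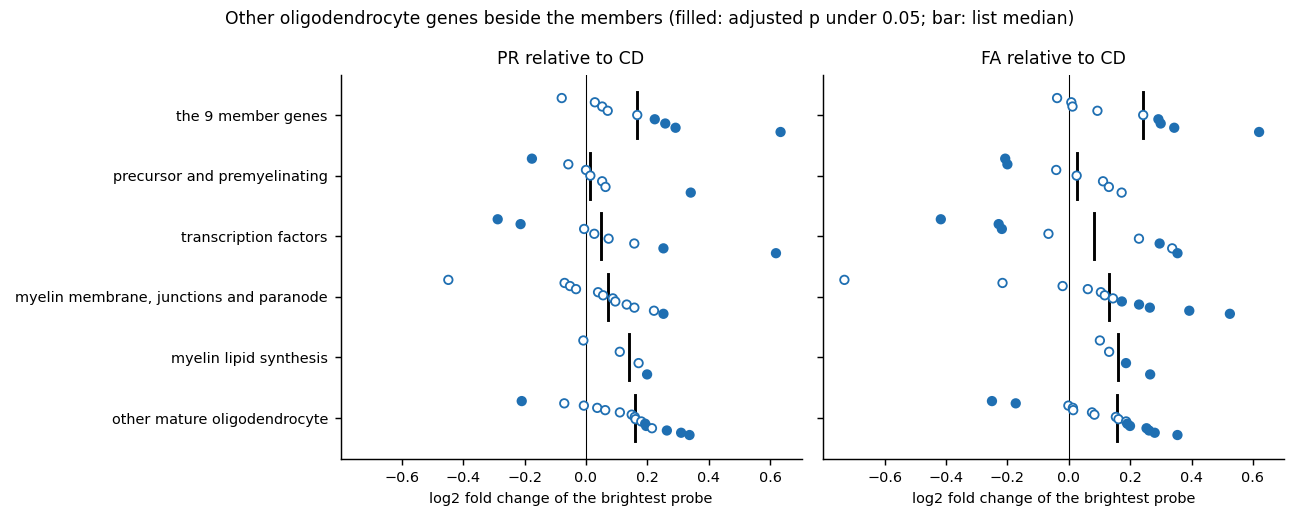
Log2 fold change of the brightest probe of each member gene and of 47 other genes of the lineage, by role, in PR and FA relative to CD. Filled points had an adjusted p under 0.05 and bars are list medians, which were 0.16 in both groups for other genes of mature oligodendrocytes and 0.01 (PR) and 0.03 (FA) for genes of precursors.

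Among 7 genes of precursors and premyelinating cells, Pdgfra, the growth factor receptor that marks precursors, was lower in both groups (log2 difference -0.18 in PR, adjusted p = 0.0246, and -0.21 in FA, adjusted p = 0.00991). Cspg4, the NG2 proteoglycan of precursors, was higher in the PR group (0.34, adjusted p = 0.0153) and was not called in the FA group (0.17, adjusted p = 0.161). Gpr17, a receptor of premyelinating cells, was lower in the FA group (-0.20, adjusted p = 0.0281), and its difference was 0.00 in the PR group. The other 4 genes were not called. Calls in this list thus went in both directions.

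Among 8 transcription factors, Olig2, the close relative of Olig1, was higher in both groups (0.25 in PR, adjusted p = 0.0171, and 0.35 in FA, adjusted p = 0.00254). St18 was higher in the PR group (0.62, adjusted p = 0.0384) and had a difference of 0.34 in the FA group (adjusted p = 0.22). Nkx6-2 was higher in the FA group (0.30, adjusted p = 0.0159). Myrf, a factor needed to start myelination, was read by a dim probe with log2 levels near 6 and was lower in both groups (-0.29 in PR, adjusted p = 0.0278, and -0.42 in FA, adjusted p = 0.00386). Zfp488 was lower in both, and Zfp536 in the FA group.

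Among 12 genes of the myelin membrane, its junctions, and the paranode, 1 was higher in the PR group, Jam3, and 5 in the FA group, among them Opalin, Pllp, Gjb1, and Omg. Opalin, a membrane glycoprotein of oligodendrocytes, differed from the CD group by 0.52 in FA (adjusted p = 0.000912) and by 0.13 in PR (adjusted p = 0.255). The test of FA against PR gave 0.39 with an adjusted p of 0.0661. The membrane protein Pllp differed by 0.26 in FA (adjusted p = 0.0127) and -0.05 in PR (adjusted p = 0.597).

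Ugt8a acts in the synthesis of myelin lipids, and 4 other genes listed under myelin lipid synthesis were measured. Cers2, which makes ceramides with very long chains, was higher in both groups (0.20 in PR, adjusted p = 0.00837, and 0.19 in FA, adjusted p = 0.00977). Gal3st1, which turns galactosylceramide into sulfatide, was higher in the FA group (0.27, adjusted p = 0.0203) and had a difference of 0.17 in the PR group (adjusted p = 0.113). Fa2h, which hydroxylates the fatty acids of these lipids, and Aspa, which frees acetate, were not called. All of these differences were smaller than that of Ugt8a.

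Of 16 other genes of mature oligodendrocytes, 5 were higher and 1 was lower in the PR group, and 6 were higher and 2 lower in the FA group. Anln, which organizes filaments in myelin, was higher in both (0.31 in PR, adjusted p = 0.00427, and 0.35 in FA, adjusted p = 0.00169), as was Tmem63a (0.20, adjusted p = 0.0442, and 0.28, adjusted p = 0.00763). Car2, the carbonic anhydrase of these cells, was higher in PR (0.34, adjusted p = 0.0168) and had a difference of 0.15 in FA (adjusted p = 0.214). Tppp and Ermn were higher in both groups, and Qdpr and Sirt2 in FA. Apod was lower in both groups and Adamts4 in the FA group. Changes that were called ran from -0.25 to 0.35.

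Markers of other cells moved in both directions. Of 7 neuron genes, 2 were higher and 1 lower in PR relative to CD, and of 7 astrocyte genes 2 and 1, with list medians of 0.05 and -0.02 on the log2 scale. In FA relative to CD 2 neuron genes were higher and 0 lower and 1 astrocyte gene was higher and 1 lower, with medians of -0.05 and -0.01. Of 7 microglia genes, 1 was higher and 1 lower in PR (median -0.13) and 1 higher and 2 lower in FA (median -0.11). Of 6 endothelium genes, 2 were higher and 0 lower in PR (median 0.13) and 2 higher and 2 lower in FA (median -0.00). Of 4 genes of cerebellar granule cells, 2 were higher and 0 lower in PR (median 0.23) and 1 was higher and 1 lower in FA (median 0.05). The median of the 9 member genes, each by its brightest probe, was 0.17 in PR and 0.24 in FA, so that in PR the medians of the granule cell and endothelium lists were of similar size. Of the 6 pituitary genes, Gh and Prl were lower in both groups. Of 4 genes of Schwann cells, which make myelin outside the brain, 2 were higher, among them Prx, and Egr2 was lower in both groups, and Pmp2 was not called. The mean log2 level of the 4 genes was 5.72 to 6.10 for CD, 6.05 to 6.85 for PR, and 5.92 to 6.17 for FA. Prx was read at 5.41 to 5.98 on the CD arrays and 6.18 to 7.73 on the others. The part of these other cells in the member values was not tested.

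**Figure D5:**
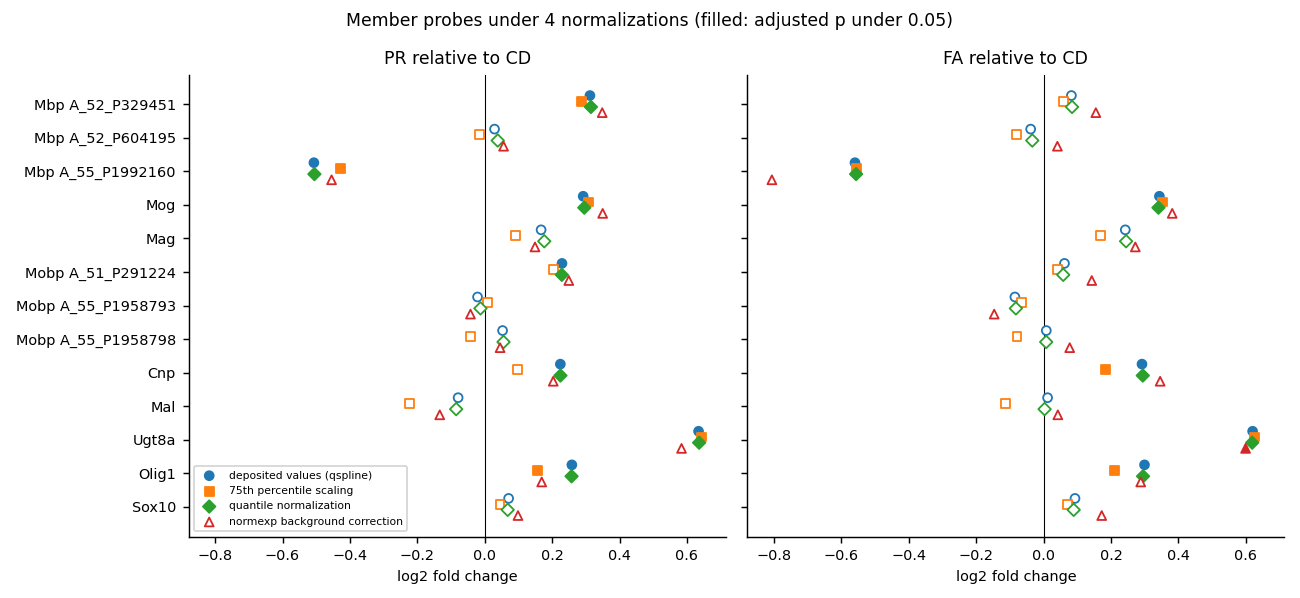
Log2 fold change of each member probe under 4 normalizations of the same arrays, with probes at an adjusted p under 0.05 filled. Relative to CD, Ugt8a lies between 0.58 and 0.64 under all 4, while that of Cnp in PR relative to CD runs from 0.10 to 0.22 and most points after the normexp background correction are open.

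The normalization moved the smaller differences. Under 75th percentile scaling, Cnp and Mobp A_51_P291224 lost their call in PR relative to CD, and the FA calls stayed at 5. After a normexp background correction, 73 of all 39429 probes differed between PR and CD and 439 between FA and CD, and of the member probes 1, Ugt8a in FA relative to CD (0.60, adjusted p = 0.0379). The direction of every member probe called on the deposited values was the same under the 4 normalizations. The median difference of all probes was -0.19 in PR and -0.41 in FA after this correction, and between -0.05 and -0.00 otherwise.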

How the data were processed

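Total RNA of 12 whole brains, 4 per diet, was hybridized in 1 colour (Cy3) to Agilent mouse arrays. The deposited scanner files hold spot intensities from Agilent Feature Extraction 11.0.1.1, and the value table deposited by the authors holds the same intensities after qspline normalization on the linear scale, per the labels. The log2 of this table, which is given by probe, was used as it was. No filter on dim probes was applied, no outlier spots were taken out of this table, and 0 spots were saturated.

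The 3 groups were fitted in limma 3.58.1 (R 4.3.3), which was tested on simulated data. P-values of limma are two-sided and Benjamini-Hochberg adjusted over 39429 probes. A Tukey test, used in the methods, was an alternative, as were other normalizations (the 75th percentile, quantile, a rewritten qspline, and normexp with an offset of 50), leaving out dim probes or single arrays, a block for the replicate number, and other variance settings. Normexp, percentile, and quantile values were made from the scanner intensities. The normexp values were also scaled to the 75th percentile of each array. The qspline rewritten from these intensities differed from the deposited values by a median of 0.000996 on the log2 scale (at most 0.151). Figures were drawn with matplotlib 3.10.9.

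A gene of a list stands for its brightest probe. Named genes were all members, then Olig2 and Pdgfra, up to 3 called genes per lineage list with the largest change, and the 5 probes most like the members within groups, and a few genes that this rule takes are not reported here. The members and lists were chosen with earlier results of these data known. Rbfox3 and Ncmap of the lists were not matched to a probe. P-values measure the spread between mice of a group, whose litters are not given. The 11 methylation samples of the series were not analysed here.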

Additional observations from a re-analysis of the deposited data

Results flagged for a closer look

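The Sox10 value of PR replicate 1, 12.21 on the log2 scale, lay apart from the other 3 PR arrays, with a gap of 0.975 of the range of the group. Of 39 sets of 4 arrays examined in this way, 1 was marked, where chance marks about 1 in 20.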

How the results depend on the processing

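Of 13 member probes, 7 were called in PR relative to CD, and this number was 0 after normexp background correction, 4 by the Tukey test, and 3 to 7 when 1 array was left out (3 without PR replicate 1, and 4 without CD replicate 1, CD replicate 3, or PR replicate 3). In FA relative to CD the 5 calls became 1 after normexp and 5 to 6 with 1 array left out. In FA relative to PR it was 0 under every alternative run. Of all probes, 30.0% were called in PR relative to CD. This share was 0.185% after normexp, 21.2% by the Tukey test, and 23.8% to 31.1% with 1 array left out. In FA relative to CD the shares were, in the same order, 34.4%, 1.11%, 25.5%, and 29.1% to 35.1%. For the 47 other lineage genes, the 14 calls in PR relative to CD became 0 after normexp, 6 by the Tukey test, and 7 to 17 with 1 array left out. The 22 in FA relative to CD became 0 after normexp and 14 to 23. The 0 in FA relative to PR became 2 without dim probes, 2 with a trended and robust variance, and 0 to 1. No member probe that was called turned its direction. Of the values of member probes under alternatives, 36 lost their call and 3 gained it, with the causes not tested. Mag in FA relative to CD was called without dim probes (adjusted p = 0.0445), with the trended and robust variance (0.0389), and without FA replicate 2 (0.0131).

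With the replicate number as a block, 6 member probes were called between PR and CD, 5 between FA and CD, and 0 between FA and PR, and 12, 18, and 0 of the other lineage genes. The Mobp probe A_51_P291224 was the 1 member that lost its call (adjusted p = 0.0752 in PR relative to CD). Deviations of arrays with the same number correlated between -0.0629 and 0.196, with 3 of 12 pairs over 0.1. Of the 12 arrays, 5 were closest to an array of their own number. With so few arrays, this check cannot tell whether the numbers pair the samples, and the main fit used no block.

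Over the whole array, 11820 probes were called between PR and CD, 13558 between FA and CD, and 242 between FA and PR. After normexp these were 73, 439, and 0, by the Tukey test 8354, 10037, and 8, with the block 10986, 12710, and 11, with 75th percentile scaling 14575, 15636, and 143, without dim probes 8483, 10415, and 554, and with the trended and robust variance 11985, 13672, and 436. Without dim probes, 55.5% of the calls in PR relative to CD were higher, against 44.7% of those over all probes. With 75th percentile scaling, 16.8% of the calls in FA relative to PR were higher, against 37.2%.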
